A study of Mus musculus with 6 samples.

Results

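RNA-seq of newborn mouse hippocampus assigned reads to many processed pseudogenes, gene copies without introns that are scattered over the genome. Expressed ones were chosen by their level, as genes annotated as processed or transcribed processed pseudogene with a mean of at least 1 CPM (the gene's counts per 1000000 of the library total) across the 6 libraries. Of 52230 annotated genes in the files, 10165 had one of those types, 2710 of these had any count, and 71 met the threshold. Those 71 were 48 processed and 23 transcribed processed pseudogenes, among 14416 genes of all types at 1 CPM or more. The files held hippocampal RNA of mouse pups at postnatal day 0, with 3 *Mov10* Deletion libraries and 3 libraries of wild-type C57BL/6 mice (WT), each from at least 2 pooled pups. The *Mov10* Deletion mouse carried floxed *Mov10*, from which Cre expressed from the *Emx1* locus removes exons 6 and 7 in forebrain cells of the excitatory lineage, together with a germline heterozygous mutant *Mov10* allele. The germline mutant allele was in all cells. Which cells lost the floxed copy was not measured in these libraries, and the paper reports that Cre with the floxed allele alone lowered hippocampal MOV10 protein only in part. The comparison asked which processed pseudogenes, and which of their coding parents, differed between these hippocampi.

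Processed pseudogenes are copies of spliced messenger RNAs that the enzymes of the LINE-1 retrotransposon reverse-transcribed and inserted elsewhere in the genome. They usually lack introns, may end in a tract of adenines, and come most often from short, abundant messages such as those for ribosomal proteins. Many are too young to have diverged from the parent gene, so that a short read can match both copies equally well. MOV10, a helicase of the microRNA pathway, is known to restrict LINE-1 retrotransposition.

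The libraries held between 71400300 and 86207971 estimated counts. *Mov10* itself was at 2.22 ± 0.196 CPM in *Mov10* Deletion against 4.79 ± 0.0321 CPM in WT (TMM-normalised CPM, mean ± SD, n = 3 libraries each, as for all CPM below), a log2 fold change of -1.11 ± 0.10 (SE; adjusted p = 0.00115, limma-trend). The 8 listed markers of the hippocampal excitatory lineage were all present, with a summed level of 3218 to 3462 CPM in *Mov10* Deletion against 3051 to 3208 CPM in WT. Of the 8, *Zbtb20* was called higher (1486 to 1771 against 1307 to 1356 CPM) and *Lhx2* lower (-0.28, adjusted p = 0.00238). The 4 astrocyte markers summed to 707 to 775 CPM in *Mov10* Deletion against 539 to 651 CPM in WT, and 2 of the 4 were called higher. The 4 choroid plexus markers ranged from 2.44 to 51.3 CPM in *Mov10* Deletion, with *Ttr* at 45.6 CPM in replicate 1, and from 7.45 to 16.4 CPM in WT, and *Ttr* was called lower (-1.33, adjusted p = 0.00924). The sums of the 5 erythroid, 4 microglia, 4 endothelial and 4 oligodendrocyte lineage markers overlapped between the groups, with 2 erythroid (*Hba-a1*, *Hbb-bt*), 1 endothelial (*Cldn5*) and 1 oligodendrocyte lineage marker (*Olig2*) called lower. The part of these cell types in the differences below was not tested, and in bulk RNA fewer cells of a type and less RNA per cell cannot be told apart.

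The 71 pseudogenes were short and close to coding genes. Their annotated models ran from 192 to 4530 bases with a median of 653, and 63 had a single exon. A parent was taken from the symbol for 15 and from the closest protein-coding transcript for 48, which gave 59 different coding genes. The other 8 were given no coding relative, as none met the rule or the best match was tied between genes. Similarity alone does not establish descent, so the gene is called the closest coding gene below where the symbol does not name it and identity was under 95%. Of the 63, 49 matched their coding gene at 95% or more and 22 were identical to it over their whole length. The models of 15 equalled the coding sequence of the parent base for base. For 56 of the 71, at least 1 other gene matched at 95% or more, up to 36 for the *Hmgb1* copy *Gm15387*. These counts include the parent where it matched. There were 52 that lay outside protein-coding genes, and overlap with genes of other types was not examined. An exon of a coding gene on the same strand was overlapped by 3, *Rpl10a-ps1* with *Akr1cl*, *Gm14057* with *Dnaaf9* and *Gm14276* with *Dsn1*. Reads of those genes could thus count for them.

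The identity can be seen in the first 30 bases of 4 copies, shown because no read inside such a stretch tells pseudogene from parent. Capitals mark the start codon that both share, and each line holds for both members of its pair.
Gm7536 and Rpl27a: ATGccatccagactgaggaagacccggaaa
Rpl15-ps3 and Rpl15: ATGggtgcatacaagtacatccaggagcta
Gm10443 and Rps28: ATGgacacgagtcgcgtgcagcccatcaag
Ndufb4c and Ndufb4: ATGtcgggttccaagtataagcctgcgccc
These windows start at base 1 of the pseudogene models. In *Rpl27a-203*, *Rpl15-202*, *Rps28-205* and *Ndufb4-201* they start at bases 174, 130, 91 and 95.

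Some copies also kept a trace of the adenine tract downstream of their annotated end. In the 50 bases after the model, a run of at least 8 adenines stood behind 7 of the 71 (9.86%), 5.19% of 9701 other processed pseudogenes on the same chromosomes and 3.34% of 20743 protein-coding genes, a description with no test. The 3 longest runs shown here are on the minus strand of GRCm39 and are given 5′ to 3′ along the pseudogene, with the run in capitals. They lie at chr2:113750141-113750170, chr1:65033060-65033089 and chr15:90648432-90648461.
Gm21596: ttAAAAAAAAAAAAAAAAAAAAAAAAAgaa
Rpl10a-ps1: tgctgccactcAAAAAAAAAAAAAAAAAAA
Rpl31-ps8: ttgcagaactgccAAAAAAAAAAAAAAAAA
The runs are 25, 19 and 17 bases long within these windows.

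Together the pseudogenes held 0.117% to 0.129% of the estimated counts of a library. Because their models are short, they held 0.785% to 0.855% of the TPM (a transcript measure that corrects for effective length). Their summed level was 1217 ± 4.58 CPM in *Mov10* Deletion against 1235 ± 78.1 CPM in WT, and the groups overlapped. Without *Rps13-ps1* the sums were 1119 ± 4.86 and 1204 ± 73.8 CPM. The 8 highest members held 61.3% of the members' summed CPM, and 43 of the 71 lay under 5 CPM. The order of levels was led by *Gm10123*, a copy of the peptidyl-prolyl isomerase gene *Ppia*, then *Gm7536* (*Rpl27a*) and *Tpt1-ps3*. The estimated counts were fractional in all 6 libraries for 55 members and whole (within 0.001 of an integer) in all 6 for only *Vamp7-ps* and *Gm9805*. Fractional values arise where Salmon divides reads among transcripts that they match.

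**Figure D1:**
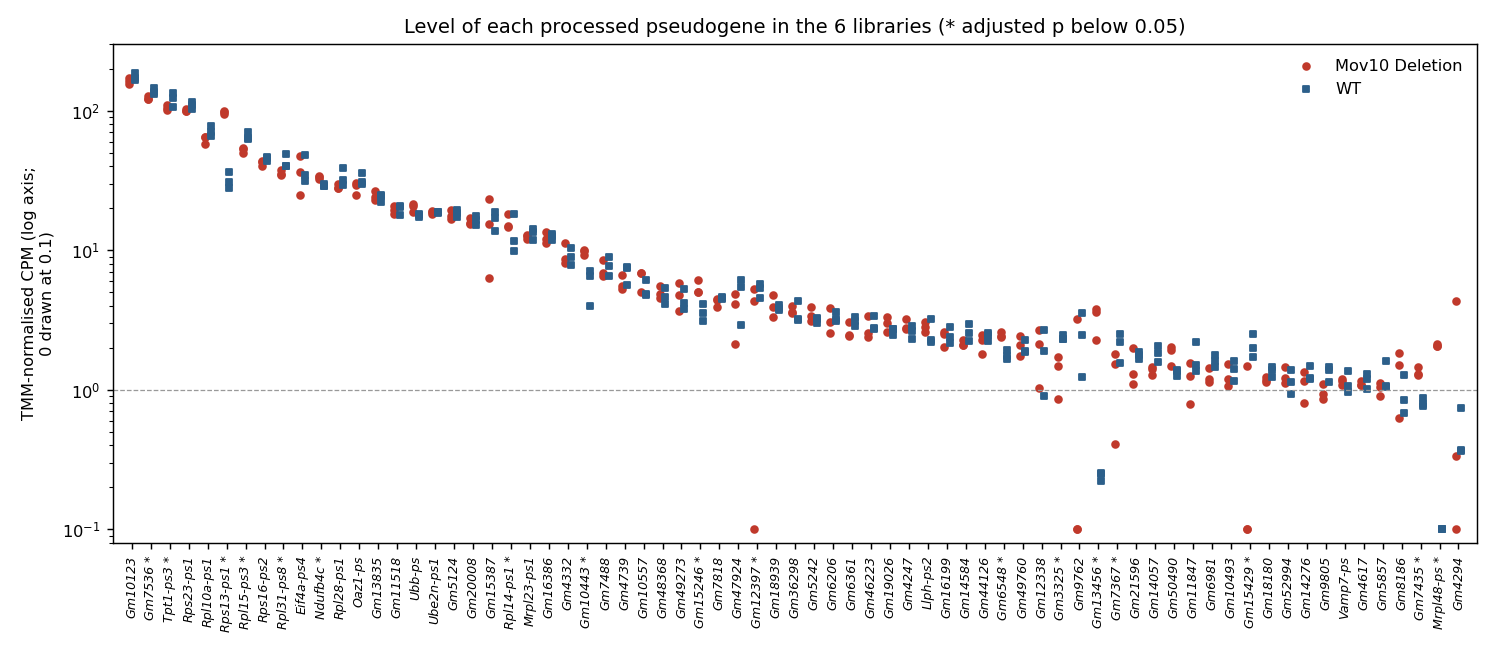
TMM-normalised CPM (log axis) of the 71 expressed processed pseudogenes, ordered by mean level, in the 3 *Mov10* Deletion (circles) and 3 WT (squares) libraries, with values of 0 drawn at 0.1 and the dashed line at 1 CPM. Most members have overlapping groups, *Rps13-ps1*, *Gm13456* and *Mrpl48-ps* are set apart, and 5 members have a value of 0 in at least 1 library.

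Measured in TPM, 5 of the 49 closest copies stood above their coding gene. *Ndufb4c* had a mean of 345 TPM over the 6 libraries against 24.3 TPM for *Ndufb4*, and *Gm7536* had 964 against 396 for *Rpl27a*. *Rps23-ps1* had 1020 against 710 for *Rps23*, *Mrpl23-ps1* had 70.0 against 22.3 for *Mrpl23*, and *Gm7435* had 1.05 where *1700001J11Rik* was listed at 0. The other 44 stood below it. The effective lengths behind these values were small for the shortest models. *Gm10443*, 210 bases long, had effective lengths of 56.0 to 59.2 bases.

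All 71 members passed the expression filter. In *Mov10* Deletion 9 were called higher and 8 lower (adjusted p below 0.05, limma-trend with 2 factors of unwanted variation). That is 23.9% of the members, beside 24.7% of all 16745 tested genes, with 12.6% of all genes higher and 12.1% lower. For 22 members (31.0%) the libraries of the groups did not overlap, against 41.6% of all tested genes. The median absolute log2 fold change was 0.17 for the members and 0.13 for all tested genes, and the median SE was 0.13 and 0.060. Without 7 members that were under 1 CPM in the mean of 1 group, 6 of 64 were higher and 7 lower, or 20.3%. The share of called members was thus near the background, and the differences described below are those of named pairs. Without the filter on low counts 3 of the 17 calls remained, and 925 genes of all types were called. Without the factors 13 of the 17 calls remained, and with edgeR's quasi-likelihood test 12. Genes of all types were then 1843 higher and 1667 lower without the factors, and 1827 and 1653 with edgeR. Upper-quartile normalization gave 9 higher and 5 lower members, and 2320 higher and 1491 lower genes of all types in place of 2104 and 2033. Leaving out a library moved the count of lower members from 8 to 14 without *Mov10* Deletion replicate 1, to 13 without *Mov10* Deletion replicate 2 and to 16 without WT replicate 1. In the same 3 fits the lower genes of all types rose from 2033 to 2532, 2988 and 2246. The p-values measure the spread that the factors left between pools of pups.

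By identity to the coding gene, the calls fell as follows, given as counts with no test and only for the 64 members at 1 CPM or more in both group means. Over all tested genes, 12.6% were called higher and 12.1% lower, and the classes here are small. Of 20 such copies identical over their whole length, 2 were higher and 5 lower. Of 23 at 95% or more that were not identical, 3 were higher and 2 lower. Of the 14 between 80% and 95%, 0 were called by limma-trend, edgeR or DESeq2, and 1 had an unadjusted p below 0.05. Of 7 given no coding relative, 1 was higher. Among the 64, 2 were called past a log2 fold change of 1 in either direction, *Rps13-ps1* and *Gm12397*, beside 0.896% of all tested genes. Over all 71 members, 5 had a value of 0 in some library. All 5 matched their coding gene at 95% or more, as did 49 of the 71. Of these 5, *Mrpl48-ps*, *Gm15429* and *Gm4294* lie outside the 64.

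**Figure D2:**
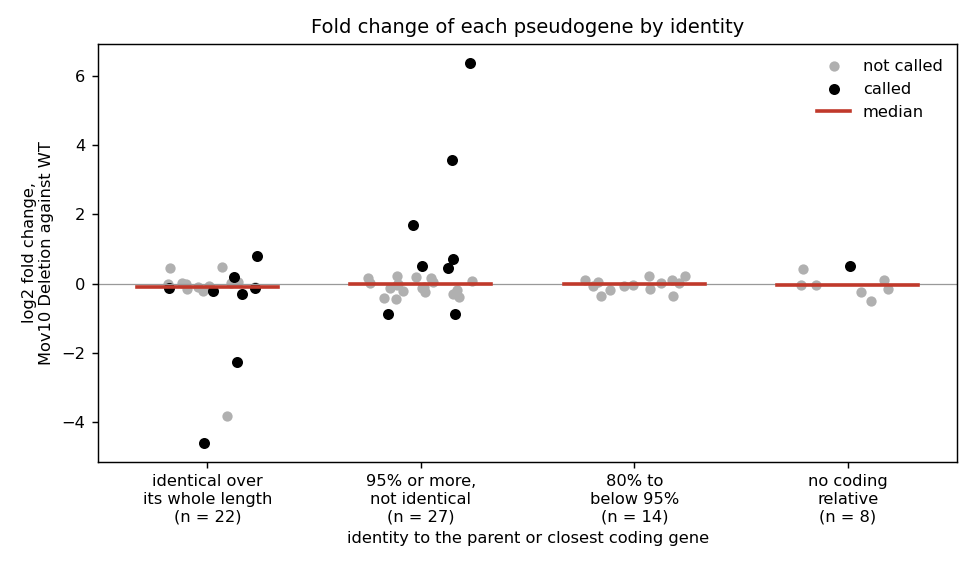
Log2 fold change in *Mov10* Deletion against WT of each of the 71 pseudogenes, by identity to the parent or closest coding gene, with called members in black and the median of each class as a red line. Fold changes span -4.59 (*Gm15429*) to 6.36 (*Mrpl48-ps*) in the closest 2 classes. These end members met the 1 CPM mean through 1 group only. The 14 members between 80% and 95%, all at 1 CPM or more in both group means, lie between -0.36 and 0.21.

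Ribosomal protein genes were the largest group of parents, with 15 copies of 14 cytosolic ribosomal protein genes. Of these 15, 3 were called higher, 3 lower and 9 were not called. Of the 14 coding parents, 8 were called lower and 0 higher, beside 12.1% and 12.6% of all tested genes. When each copy's counts were added to its parent, 10 of the 14 sums were lower and 4 were not called, beside 11.7% of all genes called lower in that fit. The ribosomal sums were not counted on their own with a library left out. Over the sums of all 59 coding genes, the 21 called lower became 4 without WT replicate 2 and 35 without *Mov10* Deletion replicate 2. Genes of all types called lower, with no copies added, moved likewise, from 2033 to 1147 and to 2988.

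*Rps13-ps1* (chr8:87774317-87774854, plus strand, GRCm39) is a copy of *Rps13*, which encodes a protein of the small ribosomal subunit. It stood at 99.9, 97.9 and 95.2 CPM in the *Mov10* Deletion libraries and at 28.0, 30.8 and 36.4 CPM in the WT libraries, so the groups lay far apart. The log2 fold change was 1.70 ± 0.04 (SE; adjusted p = 2.76e-06). *Rps13* itself stood at 51.9, 50.2 and 50.2 CPM in *Mov10* Deletion against 126, 137 and 142 CPM in WT, a fall by 1.38 ± 0.04 on the log2 scale (adjusted p = 2.76e-06). The 2 genes thus moved in opposite directions. The pseudogene took 65.5% to 66.1% of the pair's counts in *Mov10* Deletion and 18.2% to 20.4% in WT. Their sum was 148 ± 3.20 CPM in *Mov10* Deletion against 167 ± 12 CPM in WT, and fell by 0.13 ± 0.04 (adjusted p = 0.0373). That call on the sum was lost without the factors or with 1 of them (adjusted p = 0.0556 and 0.0582), without *Mov10* Deletion replicate 3 (0.0505), without WT replicate 2 (0.204) and without WT replicate 3 (0.0519). The calls on the pseudogene and on *Rps13* held under every alternative run, including with each library left out.

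The aligned part of *Rps13-ps1* differed from *Rps13-201* at 2 bases, T499C and A517G, counted from the 5′ end of *Rps13-201*, both in its coding sequence. The parent has the first letter and the pseudogene the last. The windows around them are shown because only reads that cover 1 of these bases, or that run past the aligned part, separate the pair. Capitals mark the base that differs.
Rps13 bases 484 to 513: gcgggtgctcccaccTaattggaaatatga
Rps13-ps1 bases 427 to 456: gcgggtgctcccaccCaattggaaatatga
Rps13 bases 502 to 531: ttggaaatatgagtcAtccacagcctctgc
Rps13-ps1 bases 445 to 474: ttggaaatatgagtcGtccacagcctctgc
Further genes besides *Rps13* also matched *Rps13-ps1* at 95% or more. Their counts are not in the pair sum. The reads themselves were not analysed here, so whether the pups of each group carried the reference bases at *Rps13*, *Mrpl48* and the other copies was not examined.

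**Figure D3:**
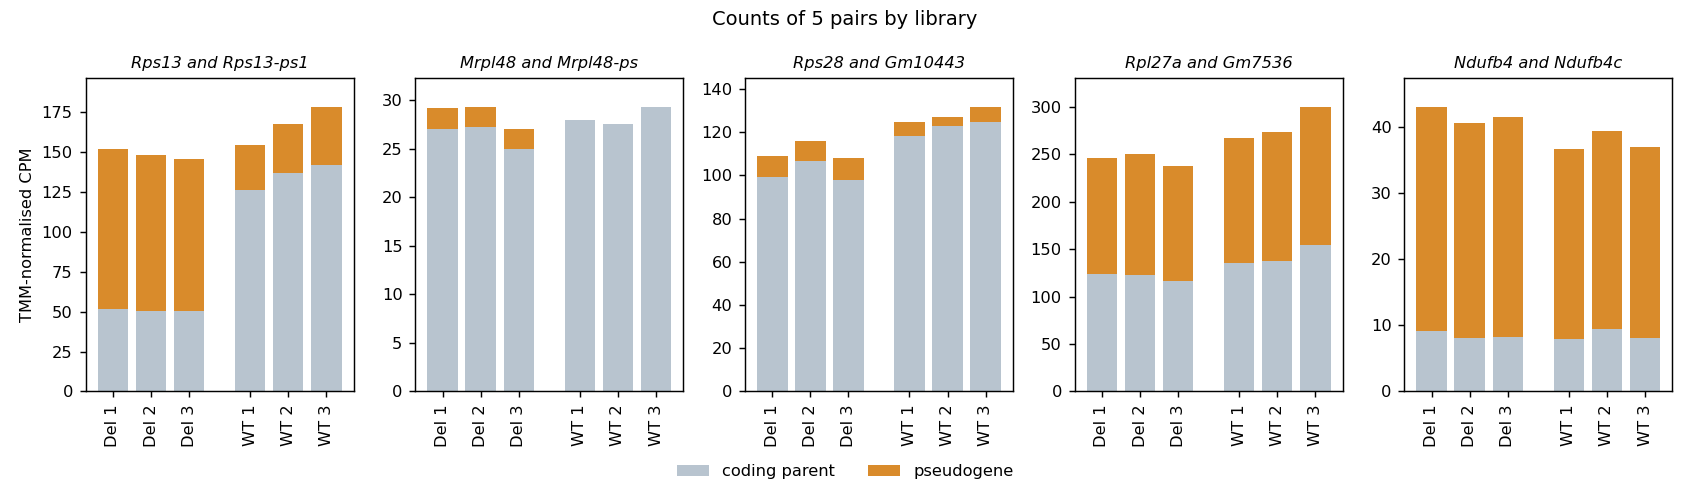
TMM-normalised CPM by library of 5 pseudogenes (orange) stacked on their coding parents (grey), in the 3 *Mov10* Deletion libraries (Del 1 to 3) and the 3 WT libraries, with a separate vertical scale for each pair. The division between *Rps13* and *Rps13-ps1* differs between the groups while the stack is 148 ± 3.20 and 167 ± 12 CPM, and *Mrpl48-ps* is seen in *Mov10* Deletion libraries only.

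*Gm10443*, a copy of the small subunit gene *Rps28*, was likewise higher where its parent was lower. It stood at 9.91, 9.27 and 10.1 CPM in *Mov10* Deletion against 6.59, 3.96 and 7.09 CPM in WT, with no overlap (log2 fold change 0.81 ± 0.21, adjusted p = 0.0273). *Rps28* fell by 0.25 ± 0.04 (adjusted p = 0.00687), from 122 ± 3.35 CPM in WT to 101 ± 4.82 CPM. The sum fell by 0.19 ± 0.04 (adjusted p = 0.0145; 0.0720 without WT replicate 2). The pseudogene is identical to *Rps28-205* over its 210 bases, and further genes match it at 95% or more. It was also the member nearest to *Emx1*, the Cre locus, at 1.13 Mb on chromosome 6, and the part of this position in the difference was not tested. The member nearest to *Mov10* was *Gm4332*, 14.8 Mb away on chromosome 3, with a log2 fold change of 0.07 ± 0.14 (adjusted p = 0.754).

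*Rpl14-ps1* was the third ribosomal copy called higher, at 18.0, 14.9 and 14.8 CPM in *Mov10* Deletion against 9.85, 11.7 and 18.2 CPM in WT. WT replicate 3 was the highest of the 6 libraries, so the groups overlapped. The log2 fold change of 0.46 ± 0.07 (adjusted p = 0.00561) became 0.31 (adjusted p = 0.265) without the factors and 0.11 (adjusted p = 0.599) without WT replicate 1. *Rpl14* had a log2 fold change of -0.04 ± 0.04 (adjusted p = 0.443).

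The 3 ribosomal copies called lower were large subunit genes whose parents also had negative fold changes, and each was identical to its parent over its whole length. *Rpl15-ps3* stood at 54.2, 49.4 and 52.7 CPM in *Mov10* Deletion against 62.7, 63.6 and 70.3 CPM in WT, and fell by 0.30 ± 0.04 on the log2 scale (adjusted p = 0.00350). *Rpl15* had a log2 fold change of -0.14 ± 0.05 (adjusted p = 0.0684), and their sum fell by 0.16 ± 0.04 (adjusted p = 0.0309). *Rpl31-ps8* fell by 0.21 ± 0.05 (adjusted p = 0.0229), with 34.4 to 37.4 CPM in *Mov10* Deletion against 40.3 to 48.5 CPM in WT. Neither pair of groups overlapped. *Gm7536* fell by 0.13 ± 0.04 (adjusted p = 0.0443), with 121 to 128 CPM in *Mov10* Deletion against 132 to 145 CPM in WT, while *Rpl27a* fell by 0.20 ± 0.04 (adjusted p = 0.0127). Its share of the *Rpl27a* pair was 49.6% to 51.2% in *Mov10* Deletion and 48.5% to 49.7% in WT. The call on *Gm7536* was lost without *Mov10* Deletion replicate 3 (adjusted p = 0.0540) and without WT replicate 2 (0.146).

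Other highly expressed ribosomal copies had small negative values that did not pass the test. *Rps23-ps1* stood at 99.3 to 102 CPM in *Mov10* Deletion against 103 to 116 CPM in WT (log2 fold change -0.10 ± 0.03, adjusted p = 0.0776), while *Rps23* was called lower (-0.12 ± 0.03, adjusted p = 0.0347). *Rps16-ps2* had -0.09 ± 0.05 (adjusted p = 0.220) beside -0.16 ± 0.04 for *Rps16* (adjusted p = 0.0220). *Rpl10a-ps1* had -0.15 ± 0.05 (adjusted p = 0.0867), and *Rpl10a* had -0.01 ± 0.03 (adjusted p = 0.802). The groups of these 3 pseudogenes did not overlap. *Rps23-ps1* was called lower when *Mov10* Deletion replicate 1 or 2 or WT replicate 1 was left out, and *Rpl10a-ps1* when any of these or WT replicate 3 was.

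A further copy of *Rpl15*, *Gm4294*, differs from it at 1 base and shows how far single libraries can diverge. It was at 0, 0.335 and 4.30 CPM in *Mov10* Deletion against 0.735, 0.370 and 0.364 CPM in WT. *Mov10* Deletion replicates 1 and 3 were the lowest and the highest of all 6. Its fitted log2 fold change was -0.41 ± 1.09, although the mean was higher in *Mov10* Deletion (1.55 against 0.490 CPM). This fold change ranged from -2.29 without *Mov10* Deletion replicate 3 to 1.29 without *Mov10* Deletion replicate 1. *Gm4294* met the 1 CPM mean only through *Mov10* Deletion, so no test is given.

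Copies of mitochondrial genes included the member with the largest difference. *Mrpl48-ps* (chr4:88517412-88518047, minus strand), a copy of the gene for a mitochondrial large subunit protein, had 2.12, 2.07 and 2.07 CPM in *Mov10* Deletion and 0 in all 3 WT libraries. These are 174, 158 and 148 estimated counts against 0. With 3 counts per WT library taken as the limit, it was at least 55.2-fold higher in *Mov10* Deletion. It passed the 1 CPM rule only through the *Mov10* Deletion libraries, so the difference is given without a test. *Mrpl48* stood at 26.4 ± 1.25 CPM in *Mov10* Deletion against 28.3 ± 0.930 CPM in WT (log2 fold change -0.09 ± 0.06, adjusted p = 0.276), and the sum was 28.5 ± 1.26 and 28.3 ± 0.930 CPM (0.02 ± 0.05, adjusted p = 0.802). The pseudogene's share of the pair was 7.07% to 7.66% against 0. The 636-base copy differed from *Mrpl48-208* at 12 bases, and the 30-base window below holds 3 of them in capitals, to show how reads from this copy can be told apart.
Mrpl48 bases 497 to 526: aaaaccatGgaagtgatgcGactGccagac
Mrpl48-ps bases 385 to 414: aaaaccatAgaagtgatgcAactAccagac

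*Mrpl23-ps1*, identical to *Mrpl23* over 93.1% of its length, stood at 12.5 ± 0.374 and 13.2 ± 1.25 CPM in *Mov10* Deletion and WT (-0.05 ± 0.07, adjusted p = 0.692). *Mrpl23* was called higher (0.40 ± 0.09, adjusted p = 0.0170), with 7.86 ± 0.678 against 5.73 ± 0.564 CPM. The sum was not called (0.11 ± 0.06, adjusted p = 0.223). *Ndufb4c*, identical over its model to *Ndufb4*, an accessory subunit gene of respiratory complex I, was at 33.8, 32.5 and 33.3 CPM in *Mov10* Deletion against 28.6, 29.9 and 28.8 CPM in WT. The groups were narrow and did not overlap (0.19 ± 0.04, adjusted p = 0.0217; 0.0543 without WT replicate 1). *Ndufb4* was at 8.49 ± 0.575 and 8.51 ± 0.841 CPM (-0.01 ± 0.09, adjusted p = 0.965), and the sum had 0.15 ± 0.05 (adjusted p = 0.0556).

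Among the 3 copies of translation factor genes were 2 of *Eef1a1*, which encodes the elongation factor that brings aminoacyl-tRNA to the ribosome. *Gm13456* was at 3.81, 3.58 and 2.26 CPM in *Mov10* Deletion against 0.222, 0.252 and 0.249 CPM in WT. Every *Mov10* Deletion library stood above every WT library, with a fitted log2 fold change of 3.57 ± 0.23. It too met the 1 CPM mean only through *Mov10* Deletion, so no test is given. *Gm6548* was at 2.62, 2.38 and 2.42 CPM against 1.74, 1.65 and 1.94 CPM (0.50 ± 0.12, adjusted p = 0.0246; 0.0700 without WT replicate 2). *Eef1a1* was not called (-0.12 ± 0.05, adjusted p = 0.121). The 2 copies made up under 0.1% of the counts of their pairs, at most 0.0843% for *Gm13456* and 0.0579% for *Gm6548*, so the sum with *Eef1a1* kept the parent's value. Both copies carry many differences from *Eef1a1-201*, 3 of which fall in the first window below and 4 in the second.
Eef1a1 bases 1050 to 1079: caatgtaaAgaacgtgtCggtcAaagatgt
Gm13456 bases 905 to 934: caatgtaaCgaacgtgtTggtcTaagatgt
Eef1a1 bases 1290 to 1319: ccccaaGttcctgaagtcTggCgaTgctgc
Gm6548 bases 949 to 978: ccccaaAttcctgaagtcCggTgaCgctgc

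The other most abundant copies had small fold changes. *Gm10123* was at 155, 163 and 173 CPM in *Mov10* Deletion against 167, 173 and 187 CPM in WT (log2 fold change -0.06 ± 0.04, adjusted p = 0.267), with a share of 17.8% to 21.6% of its pair with *Ppia*. *Tpt1-ps3*, a copy of the gene for translationally controlled tumour protein, was called lower (-0.14 ± 0.04, adjusted p = 0.0483) but its groups overlapped, with 100, 110 and 104 CPM against 106, 123 and 133 CPM. This call was kept in 5 of 15 alternatives and was lost without the factors (adjusted p = 0.0815), without either *Mov10* Deletion replicate 1 (0.0627) or 3 (0.0912), and without either WT replicate 2 (0.232) or 3 (0.105). *Tpt1* fell by 0.20 ± 0.04 (adjusted p = 0.00968).

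None of the 8 copies of proteasome and ubiquitin genes was called by limma-trend, beside 24.7% of all tested genes, and the class is small. Of the 8, 1 had an unadjusted p below 0.05, 0 were called by edgeR and 1 by DESeq2. *Ubb-ps*, a copy of the polyubiquitin gene *Ubb*, had 18.9 to 21.4 CPM against 17.4 to 18.1 CPM (0.18 ± 0.06, adjusted p = 0.0684; called without *Mov10* Deletion replicate 3 or WT replicate 3). *Gm9762*, identical to the ubiquitin-conjugating enzyme gene *Ube2d2a* over its length, was at 0, 0 and 3.22 CPM in *Mov10* Deletion against 2.48, 1.24 and 3.57 CPM in WT. Its fitted log2 fold change was -3.83 ± 1.68 (adjusted p = 0.132), with a range of -2.18 to -6.30 when a library was left out, each time past the threshold. With edgeR it was -1.21 (adjusted p = 0.466) and with DESeq2 -1.18 (adjusted p = 0.810).

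Values of 0 in single libraries also marked 2 called members. *Gm12397*, identical over its length to *Kdm2b*, which encodes a histone demethylase, was at 0, 4.33 and 5.30 CPM in *Mov10* Deletion against 5.34, 4.56 and 5.76 CPM in WT. The groups overlapped, and the log2 fold change of -2.25 ± 0.50 (adjusted p = 0.0172) became -0.08 (adjusted p = 0.643) without *Mov10* Deletion replicate 1. The call was also lost without the factors (-2.63, adjusted p = 0.266), with edgeR (-0.71, adjusted p = 0.542) and with DESeq2 (-0.70, adjusted p = 0.829). *Kdm2b* fell by 0.23 ± 0.03 (adjusted p = 0.00411), from 205 ± 3.72 CPM in WT to 174 ± 0.641 CPM, and the pseudogene was at most 2.94% of the pair. *Gm15429*, identical to the gamma-secretase subunit gene *Aph1a*, was at 1.48, 0 and 0 CPM against 2.01, 1.72 and 2.51 CPM, with a fitted log2 fold change of -4.59 ± 0.46 that edgeR put at -2.03 and did not call. It passed the rule only through WT, so no test is given. *Aph1a* fell by 0.17 ± 0.04 (adjusted p = 0.0230). *Gm7367*, which differs from *Ubald2* at 1 base, was at 0.408, 1.80 and 1.53 CPM against 2.52, 1.56 and 2.20 CPM. Its groups overlapped, and its -0.88 ± 0.17 (adjusted p = 0.0113) became -0.31 (adjusted p = 0.260) without *Mov10* Deletion replicate 1 and -0.96 (adjusted p = 0.161) without the factors. *Ubald2* fell by 0.38 ± 0.04 (adjusted p = 0.00166).

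Among the *Mov10* Deletion libraries, replicate 1, which had the high choroid plexus markers, was the only 1 at 0 for *Gm12397* and *Gm4294*, shared the 0 with replicate 2 for *Gm9762*, and was the only 1 above 0 for *Gm15429*. The part of that library's composition in these values was not tested. *Gm15387*, a copy of *Hmgb1*, which encodes a chromatin protein, also varied within a group, at 23.1, 15.3 and 6.32 CPM in *Mov10* Deletion against 17.0, 18.6 and 13.6 CPM in WT. The groups overlapped (-0.44 ± 0.34, adjusted p = 0.371). *Hmgb1* fell by 0.18 ± 0.04 (adjusted p = 0.0118).

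In 3 smaller groups of parents, the member with the smallest p was not called. *Gm6981*, closest to the glycolytic gene *Gapdh*, had 1.13 to 1.43 CPM against 1.46 to 1.79 CPM (-0.36 ± 0.15, adjusted p = 0.112). *Gm11847*, a copy of the RNA-binding protein gene *Hnrnpa3*, had -0.40 ± 0.18 (adjusted p = 0.139), and was called without *Mov10* Deletion replicate 1 (-0.58) or WT replicate 1 (-0.65). *Gm19026*, closest to *Camsap1*, which encodes a protein of microtubule minus ends, had 0.21 ± 0.12 (adjusted p = 0.225).

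Of 6 pseudogenes closest to zinc finger (*Zfp*) genes, with identities of 82.1% to 95.3%, 1 was lower and 0 higher. Over all tested genes these shares were 12.1% and 12.6%. *Gm3325*, closest to *Zfp808*, was at 1.48, 1.72 and 0.859 CPM in *Mov10* Deletion against 2.33, 2.48 and 2.30 CPM in WT. The groups did not overlap, and it fell by 0.87 ± 0.26 (adjusted p = 0.0420; 0.0523 with upper-quartile normalization, 0.0571 with the filter at 1 CPM). *Zfp808* was at 2.88 ± 0.143 and 2.79 ± 0.304 CPM (0.02 ± 0.12, adjusted p = 0.901), and the sum had -0.31 ± 0.13 (adjusted p = 0.117). Here 59 of the aligned bases differ between the copies, and the pseudogene held 24.0% to 36.9% of the pair in *Mov10* Deletion and 44.1% to 47.3% in WT.

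*Gm15246* on chromosome X was the called member that was given no coding relative. It was at 5.01, 5.03 and 6.16 CPM in *Mov10* Deletion against 4.15, 3.58 and 3.11 CPM in WT, with no overlap (0.51 ± 0.11, adjusted p = 0.0174). *Gm7435* was at 1.30, 1.28 and 1.46 CPM against 0.768, 0.873 and 0.793 CPM, with a fitted log2 fold change of 0.72 ± 0.17. It lay under 1 CPM in the WT mean, so no test is given, and its closest coding gene, *1700001J11Rik*, was listed at 0 in every library.

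The counts of the copies were also added to those of their coding genes. Of the 59 coding genes, 56 were tested on their own, and 2 were called higher and 21 lower. Of these 56, 52 had the same sign after addition and 4 the other (*Mrpl48*, *Zfp808*, *Ndufb4* and *Llph*). Of the 21 lower genes, 18 had a lower sum and 3 a sum that was not called, and 3 genes not called on their own had a lower sum. After addition all 59 were tested, with 2 sums higher and 21 lower, beside 12.1% and 11.7% of all 16685 genes in that fit. Without WT replicate 2 only 4 sums were lower, and without *Mov10* Deletion replicate 2 the number was 35. Genes of all types called lower, with no copies added, were 1147 and 2988 in these settings, against 2033 with all libraries. Of the 8 higher pseudogenes with a coding gene, 1 sum was higher (*Gm7435*), 2 were lower (*Rps13* and *Rps28*) and 5 were not called. The coding gene of *Gm7435* was at 0, so that sum, 1 of the 2 higher ones, holds only the counts of *Gm7435*. It is no test apart from the one not given above. Of the 8 lower pseudogenes, 7 sums were lower and 1 (*Gm3325* with *Zfp808*) was not called. The higher pseudogenes include *Mrpl48-ps*, *Gm13456* and *Gm7435*, and the lower ones *Gm15429*, which met the 1 CPM mean through 1 group only. Each sum also holds the pseudogene's own counts, so the 2 directions are not independent. The median member held 5.17% of the counts of its pair.

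**Figure D4:**
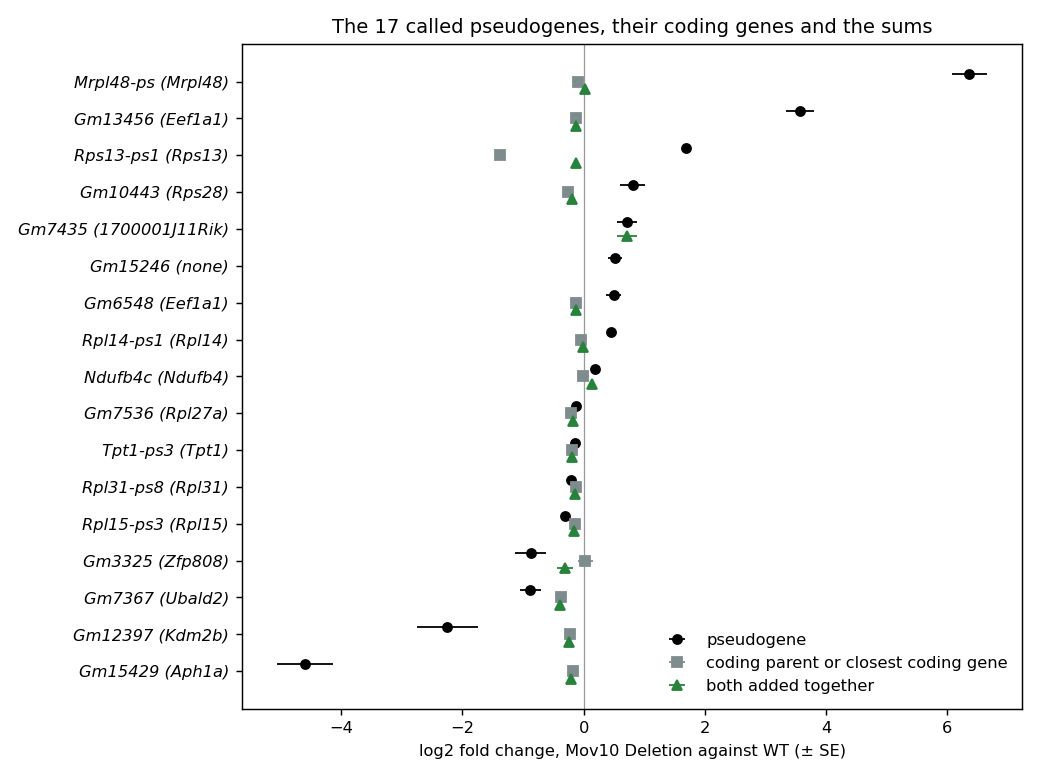
Log2 fold change (± SE) in *Mov10* Deletion against WT for the 17 called pseudogenes (circles), their coding genes (squares) and the 2 added together (triangles), with the coding gene in brackets and no square where it was not tested. The sums lie between -0.39 and 0.15 except for *Gm7435*, at 0.72, whose coding gene was listed at 0. The pseudogenes span -4.59 (*Gm15429*) to 6.36 (*Mrpl48-ps*), and these end members met the 1 CPM mean through 1 group only.

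The 1 CPM threshold was applied to the mean of all libraries, and 7 members were under it in the mean of 1 group. These were *Gm13456*, *Gm15429*, *Gm9805*, *Gm8186*, *Gm7435*, *Mrpl48-ps* and *Gm4294*, and 4 of them were called. Just inside the threshold lay *Gm7435* at 1.07, *Mrpl48-ps* at 1.04 and *Gm4294* at 1.01 CPM. Just outside lay *Gm19040* at 0.981, *Gm6682* at 0.976 and *Gm6475* at 0.956 CPM.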

How the data were processed

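Poly(A)-selected, strand-specific RNA-seq libraries of P0 hippocampus were quantified by the authors with Salmon 1.4.0 against a decoy-aware GRCm39 transcriptome. The deposited values are estimated counts, not normalized and often fractional, and TPM, which the authors' files give corrected for effective length. The sources used here do not give the annotation release. Transcripts were matched to GENCODE M39 by identifier (0.589% to 0.600% of counts unmatched and left out), and estimated counts were summed per gene. Where reads matched several copies, Salmon had divided them, so levels of near-identical genes are uncertain. The depth of 71400300 to 86207971 counts puts 1 CPM at about 71.4 to 86.2 counts, and the limit of 3 counts set for a count of 0 covers counting error only.

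Genes at 0.25 CPM or more in at least 3 libraries were tested with limma-trend (limma 3.58.1, edgeR 4.0.16, R 4.3.3) on TMM-normalised log2 CPM with a prior count of 2 and 2 RUVs factors, with Benjamini-Hochberg adjustment over all 16745 genes. RUVs was written out in R. The study does not state the RUVSeq function or the prior count. The fit left 2 residual degrees of freedom and added 5.89 prior ones. It was also run on simulated gene counts, which did not model the division of reads among similar copies, and the outcome is not given here. Parents came from the symbol or from blastn 2.17.0 (at least 80% identity over at least 50% of the pseudogene, with no parent where coding genes tied). Members were added to their parents and the table refitted. Groups and replicate numbers came from the sample titles. The alternatives were fewer factors, a replicate block, edgeR, DESeq2 1.42.0, upper-quartile normalization, other filters, prior counts and thresholds, and each library left out, which leaves 1 residual degree of freedom.

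The members and lists were chosen with earlier results of these data known. Named genes were the 8 highest, the 8 highest and 8 lowest called fold changes without overlap, the smallest p per parent class, the 3 genes on either side of the threshold, and their parents. *Rpl14-ps1*, *Gm7367*, *Gm9762*, *Gm15387*, *Mrpl23-ps1*, *Gm4332* and the members named for an overlap, a length or whole counts were chosen after their values were seen.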

Additional observations from a re-analysis of the deposited data

How the results depend on the processing

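Of the 17 calls on pseudogenes, prior count 0.5 kept 17, 1 factor 15, upper-quartile normalization 14, a filter at 1 CPM 14, DESeq2 13, no factors 13, edgeR 12 and no filter 3, and leaving out a library kept 13 to 16. The number called lower, 8, became 5 with no factors, 4 with edgeR, 5 with upper-quartile normalization, 1 with no filter, 5 for members at a mean of 2 CPM or more, and 9 to 16 with a library left out. The number called higher, 9, became 3 with no filter and 7 to 11 with a library left out. With no filter, which tests far more genes, 445 genes of all types were higher and 480 lower, against 2104 and 2033, and with a library left out 1656 to 2809 were higher and 1147 to 2988 lower. Upper-quartile normalization gave 2320 higher and 1491 lower. Sums called higher, 2, became 1 with no factors and 1 to 5 with a library left out, and sums called lower, 21, became 4 to 35. The cause of these moves was not tested.

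Values that changed sign did so for *Gm4294* (-0.41, with 1.63 by edgeR, 1.66 by DESeq2, and -2.29 to 1.29 with a library left out), and with a library left out for *Gm15387* (-0.44, with a range of -0.81 to 0.082), *Mrpl23-ps1* (-0.05, with a range of -0.15 to 0.023) and the *Mrpl48* sum (0.02, with a range of -0.0050 to 0.068). The cause was not tested. *Mrpl48-ps* could not be tested when a *Mov10* Deletion library was left out, because only 2 libraries above the filter were then left.

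No pairing by replicate number was seen. Deviations of same-numbered libraries from their group means correlated at 0.0114, -0.0711 and 0.0432, and not every library correlated best with its own number. With 3 libraries per group such correlations are constrained, so this check does not decide whether the numbers mark pairs. With the replicate block in place of the factors, 8 members were higher and 6 lower, and 13 of the 17 calls were kept. That fit called 1857 genes higher and 1568 lower, and 2 sums higher and 15 lower. Members near 1 CPM rest on few counts, and how reads were divided among identical copies cannot be examined from these files.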
